A study of Mus musculus with 12 samples.

Results

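The genes of interleukin 2 and interleukin 21, of the interleukin 2 receptor chains and of the related interleukin 15 receptor alpha chain (Il2, Il21, Il2ra, Il2rb, Il2rg and Il15ra) were followed in 12 ATAC-seq peak lists of mouse CD4+ T cells. These were 6 of the 49554 genes in the GRCm38.p6 gene table. Every called peak that overlapped the body of one of these genes with 20 kb on each side was taken, whatever its strength. The peaks fell into 61 of the 110642 merged regions of the series, of which Il2ra and Il15ra, neighbours on chromosome 2, shared 6. Single lists held 22 to 36 of these peaks.

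Interleukin 2 is the growth factor that T cells make after stimulation, and interleukin 21 is a related cytokine that helps B cells and supports other T cells. Il2ra encodes the alpha chain of the interleukin 2 receptor (CD25), which raises its affinity, is low on naive T cells, appears on stimulated ones and is constant on regulatory T cells. Il2rb encodes the beta chain, which interleukins 2 and 15 share, Il15ra encodes the alpha chain that presents interleukin 15, and Il2rg encodes the common gamma chain of the receptors for interleukins 2, 4, 7, 9, 15 and 21.

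ATAC-seq marks DNA that a transposase can reach, and a region was called open in a library where that library had a peak. The 6 groups of 2 libraries were Th2 knockout, Th2 wild type, Th1 knockout, Th1 wild type, naive knockout and naive wild type, all from the spleen. Wild-type mice were C57BL/6J, and knockout mice (KO below, against WT) lacked, on that background, a super-enhancer of the Ets1 gene, that is, a stretch of DNA with several enhancers. Naive cells, taken by negative selection, went into the assay without culture. Th1 cells were grown for 6 days on plate-bound anti-CD3 with anti-CD28, 10 ng/mL of interleukin 12 and 1 ng/mL of interleukin 2. Th2 cells were grown for 6 days with anti-CD28, 50 ng/mL of interleukin 4 and an antibody against interferon-gamma, and no interleukin 2 is listed for them. Cell type and added interleukin 2 therefore cannot be told apart between Th2 and Th1 cells. The naive libraries of a genotype were technical replicates of 1 biological sample, and the titles number the libraries of Th2 WT, Th1 KO and Th1 WT cells as biological replicates 1 and 2. The sources used here give neither the age nor the sex of the animals.

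On chromosomes 1 to 19 and X the lists held 51600 to 56357 peaks in Th2 cells, 34746 to 46006 in Th1 cells, 41075 and 43823 in naive KO cells and 52571 and 56195 in naive WT cells. Read depth is unknown, so where a peak is absent it was not called, and the DNA may still have been open. The libraries taken as Th2 KO have Th2 cells as their source name, while their titles read as second technical replicates of the 2 Th1 KO samples. They had 20 and 18 of the 31 regions at the Th2 marker genes (Il4, Il5, Il13, Gata3), against 20 in each Th2 WT library, 14 and 11 in Th1 KO and 13 and 9 in Th1 WT libraries. At the 3 Th1 marker genes (Ifng, Tbx21, Il12rb2) Th2 KO libraries had 22 and 18 of 41 regions, Th2 WT 20 and 18, Th1 KO 21 and 24 and Th1 WT 21 and 19, so this list did not separate the lineages. Of its genes Ifng alone did, with 1 or 2 open regions in the 4 Th2 libraries and 4 or 5 in the 4 Th1 libraries, and it was singled out after its values were seen. Naive libraries carried another sequencing run tag in their peak names than polarized ones, so culture and run cannot be told apart. Regions open in both replicates of a group were 69.6% to 92.4% of those in 1 replicate, with the lowest share in replicate 1 of Th1 WT.

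The 4 start sites below are shown because the data at them run in different ways. A peak lay over the Il21 start only after culture and over the Il2 start mainly in naive WT cells, while the Il2ra and Il2rg starts were open in every library. Each line gives the 250 bases before the start in RefSeq (GRCm38.p6), 5′ to 3′ on the gene's strand. Capitals mark the letters GGAAG, the core of an ETS site, and GGAAA, the core of an NFAT site, on either strand.
Il2, chr3:37125955-37126204, minus strand: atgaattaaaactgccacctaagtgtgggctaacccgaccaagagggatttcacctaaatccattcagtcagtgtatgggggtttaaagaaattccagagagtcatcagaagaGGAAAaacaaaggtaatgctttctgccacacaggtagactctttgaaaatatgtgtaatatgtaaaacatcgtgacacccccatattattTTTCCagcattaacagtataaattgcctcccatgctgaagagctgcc
Il21, chr3:37232637-37232886, minus strand: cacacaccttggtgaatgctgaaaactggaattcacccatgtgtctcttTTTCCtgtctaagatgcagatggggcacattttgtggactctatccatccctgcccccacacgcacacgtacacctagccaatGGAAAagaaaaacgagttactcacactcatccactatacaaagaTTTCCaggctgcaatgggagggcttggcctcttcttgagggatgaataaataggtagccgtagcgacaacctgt
Il2ra, chr2:11642542-11642791, plus strand: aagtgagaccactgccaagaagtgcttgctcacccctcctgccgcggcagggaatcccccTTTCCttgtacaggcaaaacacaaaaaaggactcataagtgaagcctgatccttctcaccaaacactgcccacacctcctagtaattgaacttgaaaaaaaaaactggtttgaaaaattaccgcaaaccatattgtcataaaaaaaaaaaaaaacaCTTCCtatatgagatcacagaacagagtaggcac
Il2rg, chrX:101268256-101268505, minus strand: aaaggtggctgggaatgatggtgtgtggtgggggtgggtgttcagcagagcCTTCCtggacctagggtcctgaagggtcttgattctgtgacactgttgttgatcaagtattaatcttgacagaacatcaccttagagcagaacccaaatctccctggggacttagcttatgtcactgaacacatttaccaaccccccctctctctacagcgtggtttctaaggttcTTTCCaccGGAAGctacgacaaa

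The Il2 window held GGAAA at 137 and 47 bp before the start and no GGAAG, and the Il21 window held GGAAA at 201, 118 and 74 bp and no GGAAG. The Il2ra window held GGAAG at 34 bp and GGAAA at 190 bp. In the Il2rg window GGAAG stood at 199 and 15 bp and GGAAA at 23 bp. No match of one motif overlapped another in these windows. Of 32851 mouse promoter windows of this length 64.1% held GGAAG and 55.6% held GGAAA on either strand, so neither is rare. TGANTCA, the AP-1 motif, and TTCNNNGAA, the STAT motif, stood in none of the 4 windows and in 6.75% and 7.02% of all. Promoter entries were found for 5 of the 6 genes, and the 4 windows lie within the start-site regions described next.

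Il2 (chr3:37120713-37125954, minus strand) had 3 regions, and they divided by cell state. Strength is given as a within-list percentile: the share of a list's peaks whose −log10 q-value is at most that of the peak, with 0 where no peak was called. Over the start site (chr3:37125635-37126675) the percentile was 0 in all 4 Th2 libraries, 16.7 and 0 in Th1 KO, 0 in both Th1 WT, 0 and 2.60 in naive KO and 54.7 and 49.3 in naive WT libraries. The start was thus open at middle rank in both naive WT libraries and faint or closed in every other library. At 2.5 kb upstream (chr3:37128230-37128753) the percentile was 71.8 and 64.5 in Th2 KO, 67.8 and 73.0 in Th2 WT, 32.5 and 56.0 in Th1 KO, 73.1 and 59.2 in Th1 WT and 0 in all 4 naive libraries. All 8 polarized libraries had this region and none of the naive ones did. A weaker region at 1.6 kb upstream (chr3:37127371-37127765) was at 64.6 and 0 in Th2 KO, 31.0 and 32.2 in Th2 WT, 18.6 and 53.7 in Th1 KO, 15.1 and 0.521 in Th1 WT and 0 in naive libraries. In bulk material fewer cells with an open region and less opening per cell cannot be told apart.

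Il21 (chr3:37222759-37232636, minus strand) lies 96.8 kb from Il2 and had 10 regions, 4 of them in its body. Its start site (chr3:37232502-37233231) was at 48.8 and 52.1 in Th2 KO, 38.4 and 64.7 in Th2 WT, 21.0 and 0 in Th1 KO, 36.3 and 0 in Th1 WT and 0 in all naive libraries. It was open in all 4 Th2 libraries, in 1 library of each Th1 group and in no naive library. Inside the gene, 1.3 kb from the start (chr3:37230991-37231736), the percentile was 69.6 and 89.7 in Th2 KO, 50.2 and 80.5 in Th2 WT, 78.4 and 76.7 in Th1 KO, 33.7 and 49.7 in Th1 WT and 0 in naive libraries. This region too separated cultured from naive cells without exception.

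At the farthest regions downstream of Il21 the order turned round, though not at all those nearer to it. At 27.2 kb from the start (chr3:37205165-37205760) the percentile was 0 in both Th2 KO, 38.4 and 0 in Th2 WT and 0 in all 4 Th1 libraries, against 88.4 and 78.4 in naive KO and 94.8 and 93.9 in naive WT libraries. This was among the strong peaks of naive cells, and 1 polarized library of 8 had it. Its neighbour at 28.2 kb (chr3:37203903-37204975) was at 7.63 to 37.7 in Th2 cells, 0 to 41.4 in Th1 cells and 71.3 to 88.9 in naive cells, with no overlap between polarized and naive libraries. The region at 12.9 kb (chr3:37219027-37220369) was the 1 Il21 region open in all 12 libraries, at 37.8 to 72.6 in polarized and 56.3 to 70.7 in naive libraries. Of the weaker regions, that at 22.9 kb was at 8.73 to 35.9 in Th2 cells, 0 to 30.1 in Th1 cells and 0 in 3 of 4 naive libraries, and that at 11.5 kb upstream was at 31.6 and 47.8 in naive WT cells and open in 2 other libraries. The region at 19.1 kb (chr3:37213147-37213856), closed in naive cells, is described with the Th2 and Th1 comparison.

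Il2ra (chr2:11642792-11693194, plus strand) had 26 regions, 14 in its body and 12 outside, and 3 were open in all 12 libraries. The start site (chr2:11642129-11643061) was at 90.0 and 86.2 in Th2 KO, 73.7 and 87.6 in Th2 WT, 83.6 and 83.2 in Th1 KO, 86.1 and 96.2 in Th1 WT, 75.7 and 72.0 in naive KO and 91.9 and 94.0 in naive WT libraries. Its lowest rank was 72.0, so the start was among the stronger peaks of every list, those of naive cells included. What changed between cell types lay on both sides of the start, upstream and along the gene body. Upstream, from 19.4 kb to 12.2 kb before the start, lay a run of 6 regions that no naive library had. Cultured cells did not share all of it. The regions at 19.4 and 18.9 kb had peaks in Th1 libraries alone, and those at 17.4 and 14.4 kb in Th2 libraries alone. At 19.4 kb the percentile was 0 and 49.9 in Th1 KO and 24.1 and 9.29 in Th1 WT libraries. At 18.9 kb it was 12.1 and 26.5 in Th1 KO and 46.1 and 0 in Th1 WT libraries. Naive cells had a run in the first part of the gene, from 10.8 kb to 29.5 kb after the start, though not all of it was particular to them. In that run the region at 10.8 kb was open at lower rank in most polarized libraries. The region at 12.6 kb was open in all polarized libraries and closed in naive KO libraries. Other regions went against this layout. At 6.6 kb upstream naive KO libraries were at 17.6 and 0, naive WT at 65.1 and 64.4 and all polarized at 0. At 7.4 kb upstream naive WT libraries were at 38.3 and 42.2 and all Th1 at 0. Naive KO were at 29.8 and 0 there, Th2 KO at 19.2 and 0 and Th2 WT at 24.0 and 0. At 2.6 kb after the start Th2 libraries were at 9.75 to 48.2 and naive ones at 0. Th1 KO libraries were both at 41.9 there, and Th1 WT at 0 and 30.2.

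**Figure D1:**
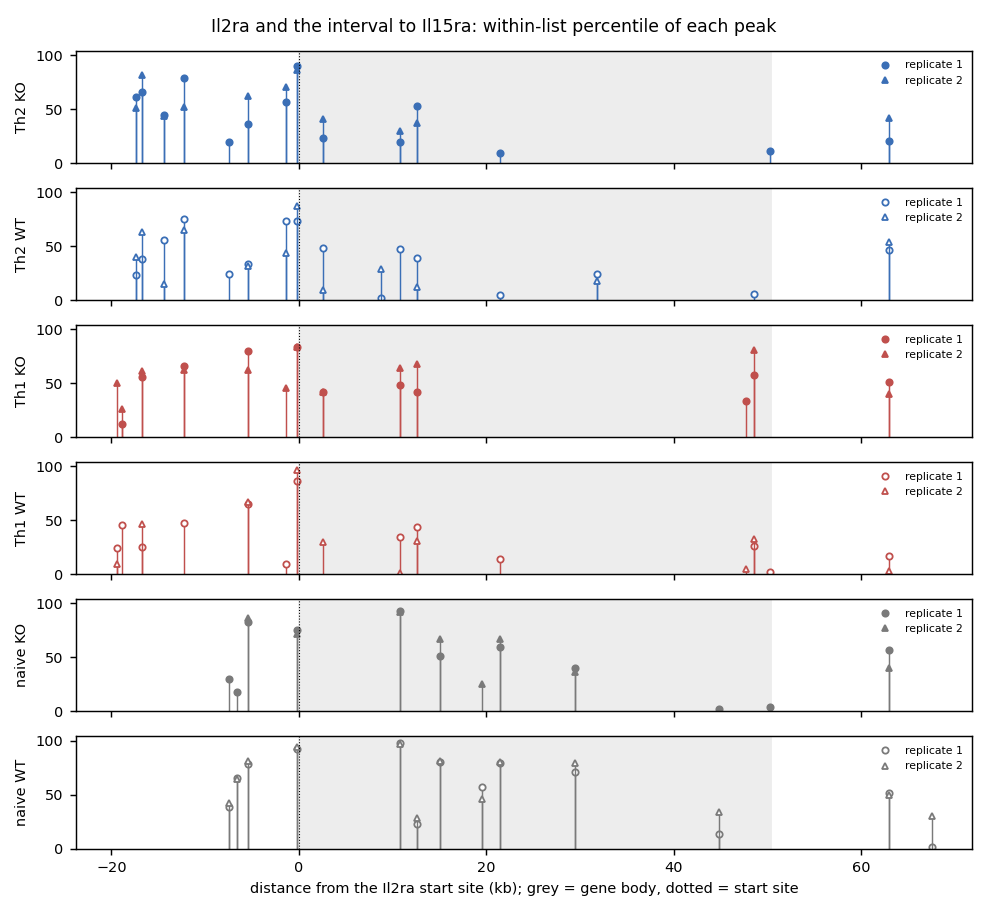
Each stem is a peak at Il2ra, placed by its distance from the start site (x axis, kb, grey for the gene body) at its within-list percentile (y axis, 0 to 100), with 1 panel per group and circles and triangles for replicates 1 and 2. The start-site stem is tall in all panels, the stems far left of it appear in the Th2 and Th1 panels and in neither naive panel, and the cluster in the first part of the gene body is dense in the naive panels and thin in the others.

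In the upstream run the region at 16.7 kb (chr2:11625811-11626349) was at 66.0 and 81.8 in Th2 KO, 38.0 and 62.9 in Th2 WT, 55.9 and 61.6 in Th1 KO, 25.5 and 46.3 in Th1 WT and 0 in naive libraries. It was the 1 Il2ra region open in all polarized and no naive libraries. The region at 12.2 kb (chr2:11630344-11630749) was at 51.8 to 78.5 in the 4 Th2 libraries, 65.9 and 62.7 in Th1 KO, 47.6 and 0 in Th1 WT and 0 in naive libraries. In the gene body the opposite held at 15.1 kb (chr2:11657614-11658074), with 0 in all polarized, 51.5 and 66.9 in naive KO and 79.8 and 81.4 in naive WT libraries. At 29.5 kb (chr2:11672116-11672518) it was 0 in all polarized, 40.1 and 36.8 in naive KO and 71.1 and 78.8 in naive WT libraries. The strongest Il2ra region of naive cells, at 10.8 kb (chr2:11653229-11653965), ranked at 92.9 and 92.4 in naive KO and 97.6 and 97.1 in naive WT libraries. It was at 0 to 47.6 in Th2 and 1.24 to 64.2 in Th1 libraries, below every naive library. Between these, the region at 21.5 kb (chr2:11663937-11664630) was at 59.5 and 66.8 in naive KO and 79.0 and 80.2 in naive WT libraries, and 3 of the 8 polarized libraries had it, at 4.76 to 14.3.

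Il15ra (chr2:11705172-11733985, plus strand) begins 11977 bp past the end of Il2ra and had 7 regions, 6 of them within 20 kb of Il2ra as well. Its start region (chr2:11705278-11706185) was open in all 12 libraries, at 20.4 and 41.9 in Th2 KO, 46.2 and 54.3 in Th2 WT, 51.3 and 39.9 in Th1 KO, 16.9 and 3.34 in Th1 WT, 57.0 and 40.1 in naive KO and 51.7 and 49.7 in naive WT libraries. The lowest were the Th1 WT libraries. Of the other regions, 2 inside the gene were open in naive WT libraries alone, at 1.75 and 29.7 (chr2:11710118-11710415) and at 9.04 and 20.8 (chr2:11715510-11715857). These were weak peaks by rank.

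Il2rb (chr15:78479256-78511621) had 13 regions, of which 3 were open in all 12 libraries, and 2 of the others were in 1 library each. No strand was given for it in the gene table entry, so its positions are counted from the lower end of the body. Inside the gene at 14.5 kb (chr15:78493451-78494038) the percentile was 87.9 and 74.8 in Th2 KO, 88.9 and 86.5 in Th2 WT, 72.6 and 58.9 in Th1 KO, 87.4 and 87.8 in Th1 WT, 37.2 and 60.02 in naive KO and 38.1 and 28.9 in naive WT libraries. WT polarized libraries stood far above naive ones here, and the lowest Th1 KO library was just below the highest naive KO library. At 15.8 kb (chr15:78494731-78495451) the range was 63.8 to 76.2 in Th2, 66.1 to 86.5 in Th1 and 45.7 to 70.0 in naive libraries. At 31.4 kb (chr15:78510107-78511159) peaks of 17.5 to 59.4 in Th2 and 28.7 to 46.8 in Th1 cells stood against 0 in 3 naive libraries and 14.6 in the other. A region 15.9 kb outside the body, in the neighbour Tmprss6 (chr15:78462944-78463686), was at 40.1 and 0 in Th2 KO, 16.0 and 0 in Th2 WT, 0 in all Th1, 31.5 and 21.6 in naive KO and 69.8 and 51.0 in naive WT libraries. The third region open in all libraries lay 3.6 kb outside the body (chr15:78475217-78476179), with 42.2 to 74.7 in Th2, 16.8 to 63.4 in Th1 and 53.5 to 77.5 in naive libraries.

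Il2rg (chrX:101264385-101268255, minus strand), the shortest of the receptor genes, had 8 regions, 2 of them in its body. Its start site (chrX:101267789-101268773) was at 56.6 and 36.8 in Th2 KO, 56.5 and 64.1 in Th2 WT, 58.7 and 56.4 in Th1 KO, 64.8 and 67.9 in Th1 WT, 84.2 and 80.6 in naive KO and 90.2 and 84.4 in naive WT libraries. All 8 polarized libraries were below all 4 naive ones. The other regions open in all 12 libraries lay in neighbouring genes, in Foxo4 (chrX:101253715-101254838) and in Med12 (chrX:101273399-101274489), and cannot be assigned to Il2rg. Polarized libraries had 3 or 4 of the 8 regions and naive libraries 4 or 5. The other genes that overlap the windows are Adad1 at Il2, Gm36168 at Il21, the noncoding Gm39759 and Gm39760 at Il2ra, Fbh1 and Gm46731 at Il15ra, Tmprss6 and C1qtnf6 at Il2rb and Gm614 at Il2rg.

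**Figure D2:**
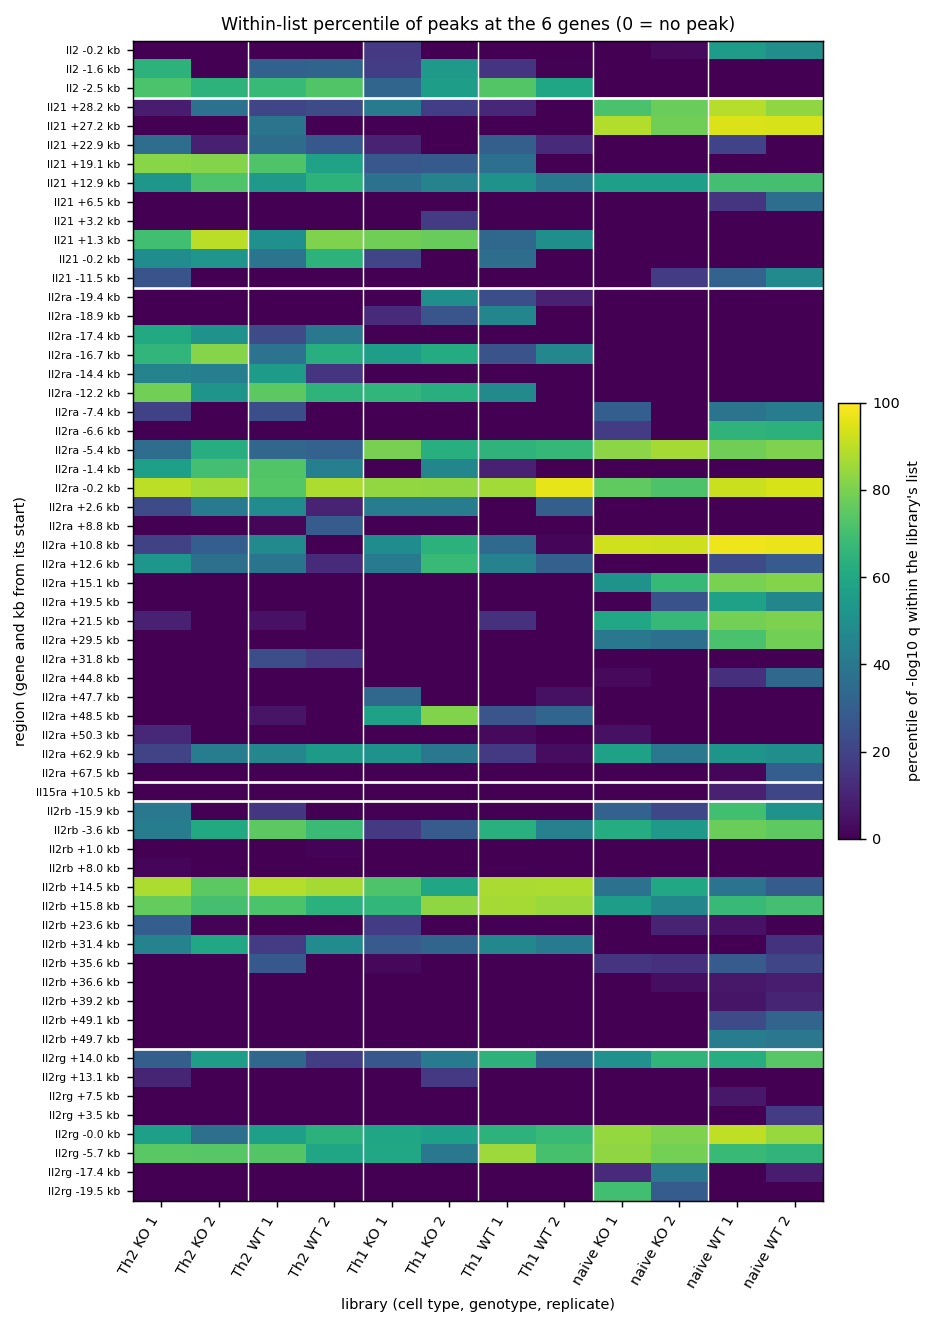
Each row is a region, named by its gene and its distance in kb from the gene's start (for Il2rb from the lower end of the body), and each column a library, with Th2 on the left and naive on the right and KO left of WT. Colour is the within-list percentile of −log10 q, from 0 (no peak) to 100, and regions that Il2ra and Il15ra share stand under Il2ra. The columns differ mainly between polarized and naive libraries. The Il2ra start row is bright throughout, and the Il2rg start row is filled throughout but brighter in naive than in polarized libraries.

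Across the 6 genes, naive WT libraries had 35 of the 61 regions each. Th2 KO libraries had 34 and 26, Th2 WT 34 and 28, Th1 KO 29 and 27, Th1 WT 28 and 22 and naive KO libraries 24 and 25. These are 36.1% to 57.4% of the member regions, against 30.5% to 49.4% of all regions in the same lists. Of the 61, 10 were open in all 12 libraries and 5 in 1 library. By gene, Il2rb had 10 open regions in each naive WT library and 4 to 7 in all others, whereas Il2 had 1 to 3 in polarized and 0 or 1 in naive libraries.

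**Figure D3:**
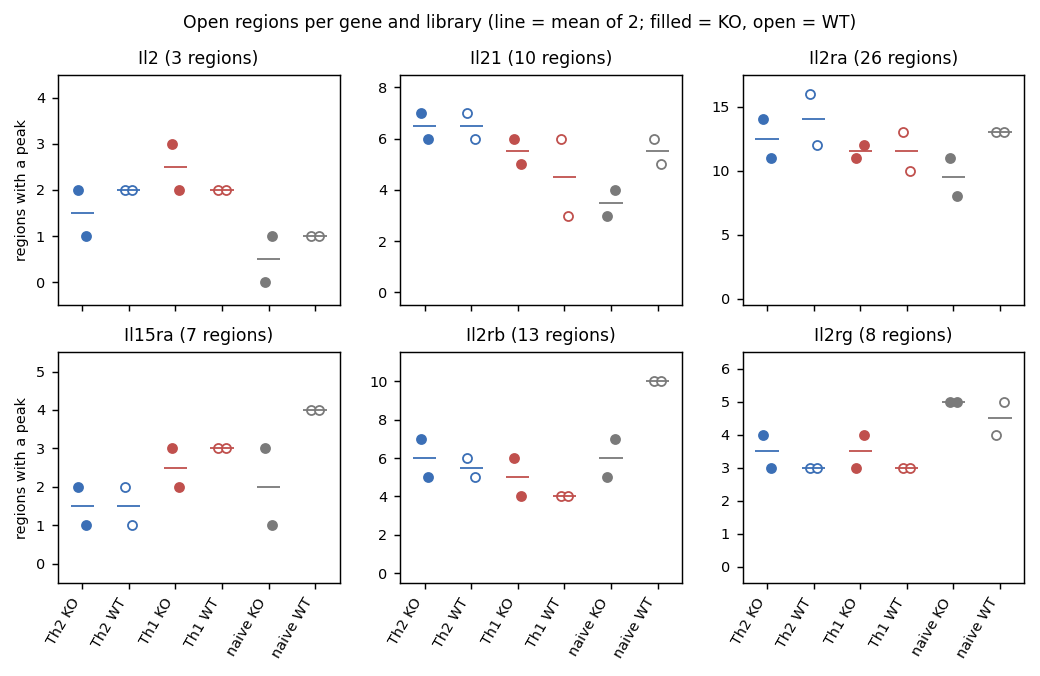
Open regions per library (y axis) of each gene by group (x axis, KO left of WT), where a point is a library, the line is the mean of 2, and filled points are KO. Il2rb stands at 10 in both naive WT libraries and at 4 to 7 elsewhere, and Il2 at 0 or 1 in naive and 1 to 3 in polarized libraries.

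Polarized cells were set against naive cells to ask which sites at these genes open or close on differentiation. A region was counted as opened where both polarized and neither naive library had it, and as closed in the reverse case. With 2 libraries against 2 no test of a region can go below an exact p of 0.333, so these are counts without a test. In Th2 against naive WT cells, 13 of the 27 member regions open in both Th2 libraries had opened, against a background of 44% of all such regions. Of the 32 regions open in both naive WT libraries 14 had closed in Th2 cells, against 42% of all. In Th1 against naive WT cells 6 of 20 had opened, against 33.3% of all, and 18 of 32 had closed, against 46.6% of all. Each share was within 10 percentage points of its background. The comparisons share the naive WT libraries.

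Regions open on both sides were compared by rank. Of the 12 member regions open in all Th2 and naive WT libraries 7 ranked lower in both Th2 libraries, against 44.9% of all such regions, and 1 ranked higher, against 23.9%. Of the 12 open in all Th1 and naive WT libraries 6 ranked lower in both Th1 libraries, against 44.7%, and 4 ranked higher, against 24.2%. The Il2rg start was among the lower ones and Il2rb 14.5 kb among the higher ones in Th1 cells. In Th2 against naive KO cells 5 of 12 ranked lower, against 40.4%, and 3 ranked higher, against 20.7%. In Th1 against naive KO cells 8 of 12 ranked lower, against 37.9%, and 2 ranked higher, against 21.6%.

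By gene, 8 of the 13 regions opened in Th2 WT cells were at Il2ra, 3 at Il21 and 2 at Il2, with none at Il2rb or Il2rg. The 6 opened in Th1 WT cells were 3 at Il2ra, 2 at Il2 and 1 at Il21. Closed regions in Th1 WT cells were 7 at Il2ra, 6 at Il2rb, 3 at Il21, 3 at Il15ra, 2 of them shared with Il2ra, and 1 at Il2. All those at Il2rb lay outside its body, some of them in the neighbours Tmprss6 and C1qtnf6. In Th2 against naive KO cells 13 of 26 had opened, against 48.3% of all, and 6 of 20 had closed, against 33.1%. In Th1 against naive KO cells 11 of 23 had opened, against 41.7%, and 7 of 20 had closed, against 35.2%. In Th1 cells the closed share was above the opened share in WT and below it in KO, as it was over all regions, and the difference between genotypes was not tested. With lists cut to equal length 7 of 15 had opened in Th2 WT cells, against 47.7% of all, and 12 of 21 had closed, against 44.0%. In Th1 WT cells 8 of 18 had opened there, against 40.6%, and 11 of 21 had closed, against 39.6%. Regions open in all 8 polarized and no naive library numbered 3 of 15, 1 each at Il2, Il21 and Il2ra, against 27.6% of all. Regions open in all 4 naive and no polarized library numbered 2 of 18, both in Il2ra, against 18.6% of all.

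**Figure D4:**
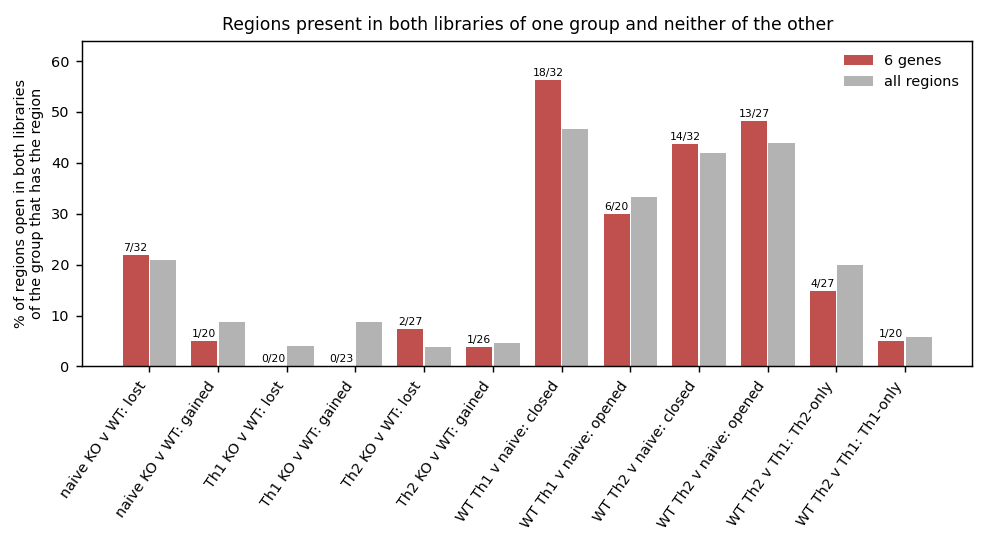
For each comparison the bars give the percentage (y axis) of regions, open in both libraries of the group that has them, that neither library of the other group has, for the 6 genes (red, with counts above the bars) and for all regions (grey). The red and grey bars are of like height in most comparisons, and no member region was lost or gained in Th1 KO cells.

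Th2 cells were set against Th1 cells to ask where the loci differ between the lineages. Il2ra carried all the presence calls. In Th2 against Th1 WT cells 4 of 27 regions were in both Th2 and neither Th1 library, against 19.9% of all. The reverse held for 1 of 20, against 5.85% of all. With lists cut to equal length the split turned to 1 of 15 Th2-only, against 13.8% of all, and 5 of 18 Th1-only regions, against 11.7%. In Th2 against Th1 KO cells 2 of 26 were Th2-only, against 16.2% of all, and 2 of 23 were Th1-only, against 6.82%. Regions in all 4 Th2 and no Th1 library were 2 of 24, both at Il2ra, against 7.47% of all, and none of 18 was in all 4 Th1 and no Th2 library, against 1.86%. By rank, 5 of the 17 regions open in all Th2 and Th1 WT libraries were higher in both Th2 libraries, against 29.9% of all, and 3 were lower, against 16.8%. In KO cells 9 of 20 were higher in both Th2 libraries, against 28.9%, and 3 were lower, against 18.8%.

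The regions that were Th2-only in both genotypes lay in the upstream run of Il2ra. At 17.4 kb (chr2:11625159-11625708) the percentile was 60.8 and 50.8 in Th2 KO and 23.4 and 40.1 in Th2 WT libraries, against 0 in all 4 Th1 libraries. At 14.4 kb (chr2:11628169-11628515) it was 44.6 and 43.2 in Th2 KO and 55.4 and 15.2 in Th2 WT libraries, against 0 in all 4 Th1 libraries. Near the other end of the gene, at 48.5 kb and within the noncoding gene Gm39760 too (chr2:11691026-11691595), the percentile was 0 in both Th2 KO and 5.30 and 0 in Th2 WT libraries, against 57.4 and 80.9 in Th1 KO and 26.5 and 32.5 in Th1 WT libraries. At 17.4 and 14.4 kb upstream the Th2-only rule itself leaves no overlap between the Th2 and Th1 groups. The region at 48.5 kb was named for its calls, among them Th1-only in KO cells. Its lack of overlap is thus no further support. With lists cut to equal length the WT calls at 17.4 kb and 14.4 kb upstream were lost.

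Percentiles of the 8 polarized libraries were tested with limma over all 63205 regions open in at least 2 of them, with Benjamini-Hochberg adjustment over all. Of the 39 member regions tested 2 were higher in Th2 cells, where 8.12% of all tested regions were, and 1 was lower, where 1.67% were. At Il2ra 17.4 kb upstream the mean was 43.8 ± 16.0 in Th2 and 0 in Th1 libraries (SD, n = 4 each), a difference of 43.8 points with a standard error of 8.46 (limma, Benjamini-Hochberg adjusted p = 0.0268). With no peak in any Th1 library, this region entered the test through its Th2 libraries alone, so it had to differ and its p adds nothing to the presence call. At Il2ra 48.5 kb into the gene it was 1.32 ± 2.65 in Th2 and 49.3 ± 24.96 in Th1 libraries, a difference of -48.0 points with a standard error of 9.47 (limma, adjusted p = 0.0279). Only 1 Th2 library had this region, at 5.30, so it met the rule of at least 2 libraries through its Th1 libraries. Its p is likewise no support beyond the percentiles themselves.

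At Il21 19.1 kb from the start the percentile was 82.1 and 81.5 in Th2 KO, 72.5 and 57.5 in Th2 WT, 27.0 and 28.4 in Th1 KO and 36.7 and 0 in Th1 WT libraries. The difference was 50.3 points with a standard error of 10.9, from means of 73.4 ± 11.5 in Th2 and 23.0 ± 15.9 in Th1 libraries (limma, adjusted p = 0.0342). Lists of unequal length can move such ranks. With lists cut to equal length the differences were 18.3 points at Il2ra 17.4 kb upstream (limma, adjusted p = 0.0818), -39.5 points at Il2ra 48.5 kb (0.0646) and 51.4 points at Il21 19.1 kb (0.0387), so the Il21 region alone stayed called there. With ranks by fold enrichment the differences were 7.04 points at Il2ra 17.4 kb upstream (limma, adjusted p = 0.253), -24.0 points at Il2ra 48.5 kb (0.113) and 48.8 points at Il21 19.1 kb (0.0470). Leaving out a library changed the calls. The upstream Il2ra call was lost whenever 1 Th1 library was left out (limma, adjusted p of 0.0593 to 0.0802), with the difference still 43.8 points each time, and kept whenever 1 Th2 library was. The call at 48.5 kb was lost without replicate 2 of Th1 KO (0.0526), replicate 2 of Th1 WT (0.0757) or whichever 1 Th2 library was left out (0.0555 to 0.0606). The Il21 call was kept only without replicate 1 of Th1 WT (0.0212), and the other 7 omissions gave 0.0614 to 0.0929. Without the Th2 KO libraries, whose labels conflict, the same differences were 31.8, -46.7 and 41.9 points and none was called (limma, adjusted p = 0.0585, 0.0936 and 0.165).

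Others came near the threshold without passing it. At Il2ra 1.4 kb upstream (chr2:11641235-11641589) the percentile was 56.6 and 70.2 in Th2 KO, 73.0 and 43.2 in Th2 WT, 0 and 46.0 in Th1 KO and 9.28 and 0 in Th1 WT libraries (limma, Benjamini-Hochberg adjusted p = 0.0745). At Il2ra 14.4 kb upstream the adjusted p of the limma test was 0.0535. That region had no peak in any Th1 library and entered the test through its Th2 libraries alone. Its p therefore adds nothing to the presence call. The Il2ra region at 5.4 kb upstream (chr2:11637059-11637630), open in all 12 libraries, was at 35.8 and 62.3 in Th2 KO, 33.1 and 31.6 in Th2 WT, 79.4 and 62.7 in Th1 KO and 64.9 and 66.6 in Th1 WT libraries, the highest Th2 value lying just under the lowest Th1 value (limma, adjusted p = 0.0979). The start regions differed by 36.7 points at Il21, -2.92 at Il2ra and -8.47 at Il2rg, with limma adjusted p of 0.112, 0.648 and 0.490. No region of Il2, Il2rb or Il2rg passed, and Il15ra had a call only through the region at 48.5 kb that it shares with Il2ra.

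**Figure D5:**
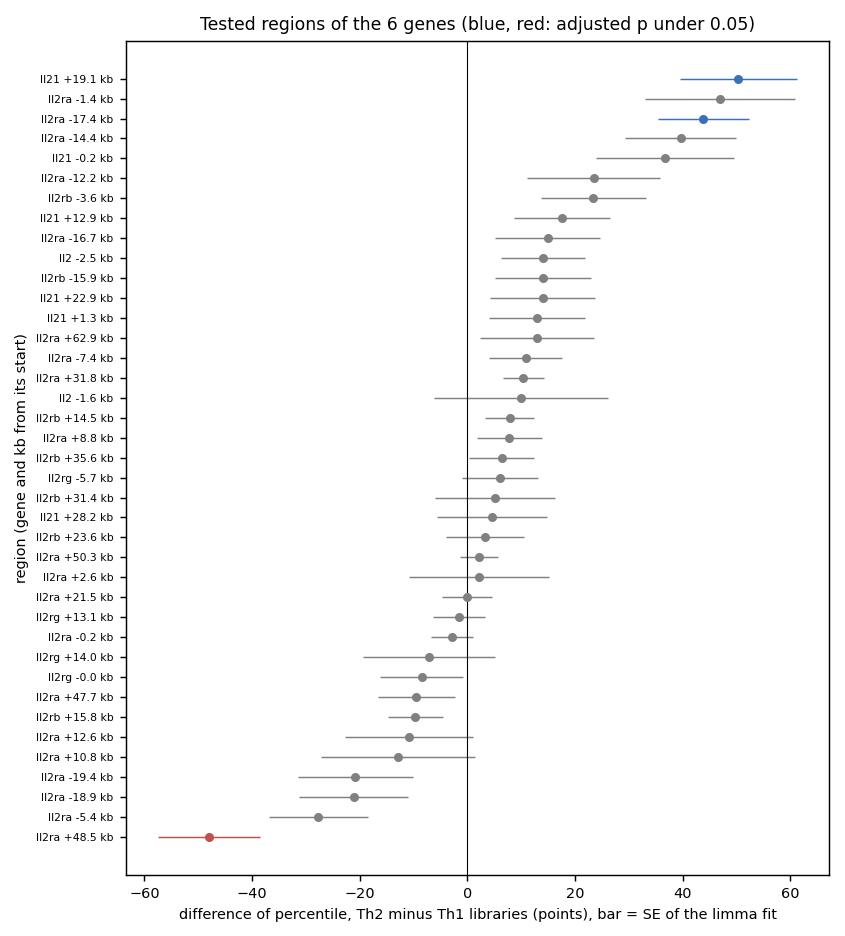
Difference of the within-list percentile, Th2 minus Th1 libraries (x axis, points), for the 39 tested regions (y axis), with the standard error of the limma fit as bars. Points right of 0 rank higher in Th2 cells, and the 2 blue points and the 1 red point are those with an adjusted p under 0.05.

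Knockout was set against wild type to ask whether loss of the Ets1 super-enhancer changes the sites at these genes. A region was lost where both WT and neither KO library had it, and gained in the reverse case. In naive cells 7 of the 32 regions open in both WT libraries were lost, against a background of 20.9%, and 1 of the 20 open in both KO libraries was gained, against 8.67%. The lost regions were weak to middling in rank. They lay at Il2rb (3, of which 2 in the neighbour gene C1qtnf6), Il2ra (2, of which 1 inside Il15ra), Il15ra (1 more) and Il21 (1). At Il2ra 12.6 kb into the gene (chr2:11654940-11655822) the percentile was 0 in both naive KO and 23.1 and 28.5 in naive WT libraries, and all 8 polarized libraries had this region, at 12.2 to 67.5. The 2 regions in C1qtnf6 (chr15:78528125-78528507 and chr15:78528745-78529068) were closed in naive KO libraries and at 22.9 and 32.5 and at 41.9 and 39.6 in naive WT libraries. The gained region lay in Med12, 19.5 kb upstream of Il2rg (chrX:101287644-101287941), at 69.9 and 29.2 in naive KO and 0 in naive WT libraries.

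Among the 18 member regions open in all 4 naive libraries, 13 ranked lower in both KO than in both WT libraries, where 46.5% of all such regions did, and 2 ranked higher, where 19.6% did. The lower ones included the Il2ra start, at 75.7 and 72.0 in naive KO against 91.9 and 94.0 in naive WT libraries. The Il21 regions did so in 3 of 3 cases and those of Il2rb in 4 of 5. The spread between these libraries is technical, from 1 biological sample per genotype. With lists cut to equal length 2 of 21 regions were lost, against 12.5% of all, and 1 of 18 was gained, against 13.0%.

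Markers of other cells differed with genotype in the naive libraries, whose KO lists were also shorter. At 4 B cell genes (Cd79a, Cd79b, Ms4a1, Pax5) 17 and 21 of 28 regions were open in naive KO and 12 and 10 in naive WT libraries, with summed percentiles of 707 and 845 against 525 and 543. All 4 had a peak in both KO libraries, and Ms4a1 had none in the WT libraries. At 3 red cell genes 11 and 14 of 19 regions were open in naive KO and 6 and 5 in naive WT libraries, with summed percentiles of 490 and 654 against 196 and 201. At the regulatory T cell genes Foxp3, Ikzf2 and Ctla4, whose cells carry CD25, 17 and 19 of 40 were open in naive KO and 26 and 32 in naive WT libraries, with 651 and 772 against 1198 and 1364. Other lists were lower in naive KO libraries as well. At the T cell genes Cd3e, Cd3d and Cd4 17 and 15 of 37 regions were open in naive KO and 23 and 26 in naive WT libraries, with summed percentiles of 737 and 710 against 1172 and 1260. At the naive T cell genes Ccr7, Lef1 and Tcf7, 34 and 38 of 80 were open in naive KO and 53 and 61 in naive WT libraries. At 3 myeloid genes 7 and 8 of 23 were open in naive KO and 9 and 11 in naive WT libraries, with summed percentiles of 139.7 and 242 against 407 and 503. At 4 CD8 and NK cell genes 11 and 12 of 27 were open in naive KO and 13 and 12 in naive WT libraries. The part of these in the naive differences was not tested. The naive KO lists had 10 and 9 peaks on the Y chromosome and the naive WT lists 22 and 20, which bears on X-linked Il2rg, and its part was not tested either.

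In Th1 cells none of 20 regions was lost, against 3.96% of all, and none of 23 was gained, against 8.76%. Of the 18 open in all 4 Th1 libraries 6 ranked higher in both KO libraries, against 23.1% of all, and 8 ranked lower, against 12.6%. The lower ones included 4 of 4 regions at Il2rb and 2 of 3 at Il2rg, while 4 of 7 at Il2ra ranked higher. At Il2rb 14.5 kb the percentile was 72.6 and 58.9 in Th1 KO and 87.4 and 87.8 in Th1 WT libraries, a difference of -21.8 points with a standard error of 6.40 that did not pass (limma, Benjamini-Hochberg adjusted p = 0.344). At Il2ra 48.5 kb it was 57.4 and 80.9 in Th1 KO and 26.5 and 32.5 in Th1 WT libraries (limma, adjusted p = 0.421). At Il21 1.3 kb it was 78.4 and 76.7 in Th1 KO and 33.7 and 49.7 in Th1 WT libraries (limma, adjusted p = 0.446).

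In Th2 cells 2 of 27 regions were lost, against 3.83% of all, and 1 of 26 was gained, against 4.56%. Both lost regions were weak peaks in the Il2ra body. They were at 0 in Th2 KO and 24.0 and 17.4 in Th2 WT libraries at 31.8 kb (chr2:11674344-11674864), and at 0 in Th2 KO and 1.72 and 29.3 in Th2 WT libraries at 8.8 kb (chr2:11651422-11651742). The gained region, at Il2rb 23.6 kb (chr15:78502446-78503211), was at 29.8 and 1.02 in Th2 KO and 0 in Th2 WT libraries. Of the 24 regions open in all 4 Th2 libraries 5 ranked higher in KO, against 18.7% of all, and 2 ranked lower, against 15.7%. None of these presence calls was left in lists of equal length.

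No region of the whole table passed the limma test with Benjamini-Hochberg adjustment for KO against WT in Th1 or Th2 cells, or for the difference between the 2 genotype effects, 0 of 63205 each. Without replicate 1 of Th1 WT, limma called 416 regions of the table higher and 9 lower in Th1 KO cells, and with peaks that cover 50% of a region 3 higher and 2 lower, none of them at these 6 genes. At an unadjusted p under 0.05 there were 5 member regions of 39 in Th1 cells and 1 in Th2 cells, against 5506 and 4650 of all. For the difference between the effects there were 3 member regions, against 4848 of all. The lowest member value in Th2 cells was that of Il2ra 31.8 kb, with a difference of -20.7 points and a standard error of 5.39 (limma, adjusted p = 0.347). Its only peaks were in the 2 Th2 WT libraries, so it entered the test through them and had to differ. Its p thus adds nothing to the presence call. It was the 1 member region counted in Th2 cells and 1 of the 3 counted for the difference between the effects.

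The other genes of the pathway were counted in the same way. A list of 24 genes held the interleukin 4, 7, 9 and 21 receptors, other cytokines, JAK kinases and STAT factors, feedback genes and factors that bind the Il2 promoter. In naive KO cells 34 of their 161 regions were lost (21.1%, against 20.9% of all) and 7 of 114 gained (6.14%, against 8.67% of all), shares near the background. The genes with most lost regions were Jak1 (7 of its 39 regions), Nfatc1 (5 of 30), Nfkb1 (4 of 38) and Nfatc2 (3 of 28). Jak1 encodes a kinase of the pathway. The others encode factors of the Il2 promoter and, like Jak1, have many regions. In Th1 KO cells 3 of 107 were lost (2.80%, against 3.96% of all) and 10 of 128 gained (7.81%, against 8.76%). In Th2 KO cells 10 of 144 were lost (6.94%, against 3.83%) and 5 of 139 gained (3.60%, against 4.56%). In Th2 against naive WT cells 47.2% of 144 had opened and 42.9% of 161 had closed, against 44% and 42% of all. In Th1 against naive WT cells 34.6% of 107 had opened and 47.8% of 161 had closed, against 33.3% and 46.6% of all. For Th2 against Th1 cells limma called 15 of 209 pathway regions higher (7.18%, against 8.12% of all) and 4 lower (1.91%, against 1.67%) after Benjamini-Hochberg adjustment, with 4 of the higher ones at Nfkb1 and 2 each at Il9r, Ptpn2 and Nfatc2.

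Genes whose summed percentile followed that of a member most closely over the 12 libraries are given as a description. Among 11800 protein-coding genes with at least 5 regions, the highest Pearson r with Il21 was 0.981 for Camk1d, with Il2ra 0.957 for Arf4, with Il15ra 0.925 for Cyp4f18, with Il2rb 0.932 for Piga and with Il2rg 0.950 for Gm46963. These libraries share list length and cell state across all genes. Il21 had summed percentiles of 309 to 342 in Th2, 102 to 216 in Th1, 216 and 230 in naive KO and 321 and 332 in naive WT libraries. Il2rg had 142 to 172 in Th2, 146 to 215 in Th1, 299.9 and 294 in naive KO and 227 and 249 in naive WT libraries, the only one of the 6 genes whose highest sums were in naive KO cells. The regions that ranked higher in naive KO than in naive WT libraries lay in Med12, 5.7, 17.4 and 19.5 kb upstream, and cannot be assigned to Il2rg. The Il2rg start itself was lower in naive KO (84.2 and 80.6) than in naive WT libraries (90.2 and 84.4).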

How the data were processed

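The authors deposited 12 files, 1 list of peaks for each library, made from paired reads of 38 bp with BWA, Picard and MACS2 on GRCm38, per the submitters' processing notes. The sources used here give no versions or settings, and the layout without a header is that of MACS2 broad peaks. Deposited values per peak were a score, a fold enrichment (ratio) over local background, a −log10 p-value and a −log10 q-value, all scaled by the authors within a library. The −log10 q-value was used only as a rank within its list, and the fold ratio only as a rank in an alternative. The score, 10 times the −log10 q-value without decimals in nearly all peaks, and the −log10 p-value were deposited but not used. Highest q-values were near 0.1.

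Peaks on chromosomes 1 to 19 and X were merged where they overlapped by 1 bp or more, and each library's best percentile was taken per region. Groups followed the titles, and the source name for Th2 KO. Presence calls compare 2 libraries with 2 and have no test. Percentiles of the 8 polarized libraries were fitted with limma 3.58.1 (R 4.3.3, trend, group means) over all regions open in at least 2 of them, with Benjamini-Hochberg adjustment and a threshold of 0.05. The fit was run on simulated data in which strong regions were closed in all Th1 libraries. That run does not bear on smaller changes, such as those with peaks on both sides. Naive libraries, as technical replicates, stayed out of it. Sequences came from RefSeq, and gene positions from its GRCm38.p6 table. Python 3.11.15, numpy 2.4.6, pandas 2.3.3 and matplotlib 3.10.9 were used.

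The members, the pathway and marker lists, the rules and the tests were chosen with earlier results of these data known. Named are all 6 genes, each start-site region, overlapping genes, up to 4 pathway genes with most calls, and the genes most like a member. All called regions are in the counts, but only part of them are described with their values. The B cell and naive T cell marker lists are given without 1 gene each, which is not reported here. Other regions were named after their values were seen. Alternatives were lists of equal length (34746 peaks each), a q-value of at most 0.01, windows of 50 kb, peaks that cover 50% of a region, ranks by fold, a replicate block, and leaving out each library. Leaving out both Th2 KO libraries was added after seeing the data. P-values set a group difference against the spread between these libraries, which include the Th2 KO libraries with their conflicting labels.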

Additional observations from a re-analysis of the deposited data

How the results depend on the processing

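Counts below are member regions. Lists of equal length gave 3 lost or gained regions in naive KO cells against 8, 1 in Th1 against 0, 0 in Th2 against 3, and 1 limma call for Th2 against Th1 cells against 3. A q-value of at most 0.01 gave 1 in Th1 and 1 in Th2 KO cells. Peaks covering 50% of a region gave 3 in Th1 KO cells and 8 for Th2 against Th1 WT cells (5 in the main count). Windows of 50 kb, which hold more regions, gave 6 in Th2 KO cells, 41 for Th2 against naive (27 in the main count), 10 for Th2 against Th1 WT cells and 7 limma calls. Ranks by fold gave 1 limma call, and leaving out both Th2 KO libraries gave 0.

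Leaving out 1 library can only add presence calls by construction. It gave 10 to 13 in naive KO, 3 to 4 in Th1 KO and 4 to 7 in Th2 KO cells, 27 to 30 for Th1 against naive, 28 to 34 for Th2 against naive, 8 to 11 for Th2 against Th1 WT cells, and 0 to 2 limma calls for Th2 against Th1. Limma made no KO call at these genes in any of these runs.

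Replicate numbers did not pair the libraries. Deviations of same-numbered libraries correlated at -0.00556 to 0.0375 over 63205 regions. With the replicate number as a block, limma called 0 member regions and 0 of all regions for Th2 against Th1 cells, with Benjamini-Hochberg adjusted p of 0.0742, 0.0741 and 0.0680 for the 3 regions called without it.

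The split for Th2 against Th1 WT cells turned from 4 Th2-only and 1 Th1-only region to 1 and 5 in lists of equal length. Alternatives for single regions were run for the called regions of the KO against WT and the WT presence comparisons and for the 3 limma calls, and none of these changed direction. Polarized against naive KO cells had no alternative run. Unknown depth limits every absent peak, lists of unequal length limit ranks, and 2 libraries per group limit the tests.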

Other observations

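Further genes followed a member over the 12 libraries almost as closely as those named above. For Il21 they were Clec16a (r = 0.977) and Mboat1 (0.973), for Il2ra Dennd6a (0.948) and B4galt4 (0.927), for Il15ra Dcps (0.883) and Crtam (0.877), for Il2rb Slc37a1 (0.900) and Tent5b (0.900), and for Il2rg Nr1h2 (0.943) and 1110059E24Rik (0.941). Of the pathway genes not described above, Il9r, the receptor of interleukin 9, had 6 open regions of 7 in both Th2 KO, 4 and 2 in Th2 WT and 1 in each Th1 library. It had 2 and 3 in naive KO and 4 in both naive WT libraries. Ptpn2, which encodes a phosphatase that acts on JAK kinases, had 8 to 11 open regions of 17 in Th2, 8 to 12 in Th1 and 2 to 5 in naive libraries. Il21r, the receptor chain of interleukin 21, had 6 or 7 open regions of 17 in polarized cells, 10 and 11 in naive KO and 13 in both naive WT libraries.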
